A study of Mus musculus with 35 samples.

Results

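Pseudogenes are copies of genes that have lost the ability to make the original protein, and many carry the name of the gene they were copied from followed by -ps. The genes described here are the mouse pseudogenes named in that way. They had a name ending in -ps with or without a number, did not begin with Rpl or Rps (ribosomal protein names), had a processed or unprocessed pseudogene biotype (transcribed forms included), and held at least 100 counts summed over 29 RNA-seq libraries. Of the 55356 genes in the annotation, 157 met this rule, and another 996 met it except for the count. Just above the limit stood *Cd63-ps* and *Phf11-ps* with 101 counts each, and just below it *Serpina3e-ps* with 99 and *Amd-ps7* with 98. The total count chose the members, so being transcribed is not a finding about them. For 88 of the 157, a protein-coding gene with the name of the stem was counted in the same libraries, and this gene is called the parent. The 88 pairs held 71 different parents, because a parent such as *Ppp1r2* or *Hmgb1* has several copies. The other 69 pseudogenes had a stem that names no counted coding gene, such as *Dynlt1* or *Vmn2r*.

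The RNA came from adult C57BL/6J mice of both sexes and was depleted of ribosomal RNA before strand-specific library construction. Brain, cerebellum, heart and colon were sampled from females and males, ovary from females and testis from males, with 3 libraries in each of the 10 groups except male heart, which had 2. The study asked where and how strongly pseudogenes are transcribed, and the question here is whether a pseudogene follows the tissue pattern of its parent. No agent, transgene or deletion was involved, and the labels do not say which libraries come from 1 animal, so p-values measure only the spread between these libraries, which may be technical. Sex and gonad cannot be told apart in ovary and testis. In whole tissue, fewer cells of a type and less RNA per cell cannot be told apart.

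A processed pseudogene, or retrocopy, forms when a messenger RNA is copied back into DNA and inserted elsewhere in the genome. It lacks the introns and usually the promoter of its parent, so transcription depends on sequence near the insertion. An unprocessed pseudogene forms by duplication of DNA and can keep the introns and promoter. Testis is known for transcribing many genes and retrocopies that are silent elsewhere, mostly in meiotic and post-meiotic germ cells. Of the 157 pseudogenes, 89 were processed and 68 unprocessed, and 72 of the processed but 16 of the unprocessed had a counted parent. The study's methods state that uniquely mapped reads alone were kept, so a read that fits a pseudogene and its parent equally well should be lost for both, and counts on near-identical copies are uncertain.

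Sequence decides how far a pair can be told apart, so stretches are shown for the pairs on which the results turn. Each comes from a GENCODE M21 transcript on mouse genome GRCm38 (mm10) and is written 5′ to 3′ on the gene's own strand, and capitals mark bases that differ from the parent. Coordinates of a stretch in a parent that crosses an intron span that intron. The first set covers bases 121 to 180 of the coding sequence of *Ppp1r2*, an inhibitor of protein phosphatase 1, and its 7 pseudogenes. Ppp1r2 lies at chr16:31265358-31274850 (minus strand), -ps1 at chr17:6324463-6324522 (minus), -ps2 at chr6:90905953-90906012 (plus), -ps3 at chr19:30539375-30539434 (minus), -ps4 at chr9:66805751-66805810 (minus), -ps6 at chr17:6254023-6254082 (plus), -ps7 at chrX:22461843-22461902 (plus) and -ps9 at chrX:15111204-15111263 (minus).
Ppp1r2: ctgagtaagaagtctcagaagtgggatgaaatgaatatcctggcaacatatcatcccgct
Ppp1r2-ps1: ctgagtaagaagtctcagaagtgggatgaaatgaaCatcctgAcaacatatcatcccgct
Ppp1r2-ps2: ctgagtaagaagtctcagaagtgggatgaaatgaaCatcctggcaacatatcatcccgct
Ppp1r2-ps3: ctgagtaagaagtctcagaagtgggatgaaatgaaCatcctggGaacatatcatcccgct
Ppp1r2-ps4: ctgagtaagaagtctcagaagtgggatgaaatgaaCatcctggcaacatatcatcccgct
Ppp1r2-ps6: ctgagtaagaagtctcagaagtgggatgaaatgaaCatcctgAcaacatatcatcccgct
Ppp1r2-ps7: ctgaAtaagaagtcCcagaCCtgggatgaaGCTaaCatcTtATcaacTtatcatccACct
Ppp1r2-ps9: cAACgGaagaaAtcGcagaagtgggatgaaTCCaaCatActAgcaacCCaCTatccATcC
The 5 copies on autosomes differed from the parent at 1 or 2 of the 60 bases, while the copies on the X chromosome differed at 14 (-ps7) and 19 (-ps9).

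The second set covers the first 60 coding bases of *Hmgb1*, a chromatin protein that bends DNA, because 3 of its 5 copies were called lower in testis, where all 7 *Ppp1r2* copies were called higher. Hmgb1 lies at chr5:149050678-149050737 (minus strand), -ps2 at chrX:146175942-146176001 (plus), -ps3 at chr11:63846759-63846818 (minus), -ps6 at chr16:31991807-31991866 (minus), -ps7 at chr7:42020836-42020895 (plus) and -ps8 at chr10:22263308-22263367 (minus).
Hmgb1: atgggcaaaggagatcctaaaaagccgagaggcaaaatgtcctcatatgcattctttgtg
Hmgb1-ps2: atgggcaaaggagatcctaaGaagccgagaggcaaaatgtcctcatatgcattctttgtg
Hmgb1-ps3: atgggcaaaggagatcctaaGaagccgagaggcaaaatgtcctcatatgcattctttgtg
Hmgb1-ps6: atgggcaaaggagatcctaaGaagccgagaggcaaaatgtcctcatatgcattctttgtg
Hmgb1-ps7: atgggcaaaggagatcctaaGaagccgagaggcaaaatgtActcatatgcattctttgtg
Hmgb1-ps8: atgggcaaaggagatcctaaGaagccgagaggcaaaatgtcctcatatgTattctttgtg
Each copy differed from the parent at 1 or 2 of the 60 bases.

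The third set holds the pair with the lowest Pearson's r over tissues, *Eif2s3x-ps1* and its X-linked parent *Eif2s3x* (a subunit of the factor that brings the initiator tRNA to the ribosome), and a retrocopy with the heart pattern of its parent, *Fabp3-ps1* and the heart fatty acid binding protein *Fabp3*. Coding bases 331 to 390 of Eif2s3x lie at chrX:94205137-94209381 (minus strand) and match chr15:75968252-75968311 (minus). The first 60 coding bases of Fabp3 lie at chr4:130308778-130308837 (plus) and match chr10:86732329-86732388 (minus).
Eif2s3x: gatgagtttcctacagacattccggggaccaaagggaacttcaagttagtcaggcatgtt
Eif2s3x-ps1: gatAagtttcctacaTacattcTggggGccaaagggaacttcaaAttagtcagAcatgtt
Fabp3: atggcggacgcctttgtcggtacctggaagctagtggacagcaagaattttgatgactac
Fabp3-ps1: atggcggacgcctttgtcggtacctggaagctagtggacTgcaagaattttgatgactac

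By the best local alignment of transcripts, 84 of the 88 pairs aligned, and in 77 pairs the parent was the closest coding gene. Identity, which here and below covers the aligned part alone, had a median of 96.6%. The aligned part had a median of 100% of the pseudogene, but was 19.7% for *Nlrp5-ps* and 30.5% for *Pdxk-ps*. To ask how much of a pseudogene could give reads that also fit the parent, every stretch of 100 bases in the pseudogene was looked up in the parent's transcripts. In 35 pairs no such 100-base word was found in the parent, in 33 pairs some but under 50% were found, and in 20 pairs at least 50%. Of the 157 pseudogenes, 37 had at least 50% of their words in some other gene. In 14 pairs the pseudogene held an open reading frame as long as the parent's coding sequence.

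Each library held 11742417 to 36194255 counts (median 24403774), and the 157 pseudogenes together took 0.0328% of all counts. Genes that define the tissues and sexes were higher in their labelled libraries than in any other library for 14 of 14 genes, such as *Myh6* in heart and *Prm1* in testis. Libraries correlated with the others of their group with a mean r of 0.954 to 0.989, and the lowest was the third female heart library. In that library the summed level of the fat cell genes *Adipoq* and *Cfd* was 3008 FPKM, against a median of 1.80 over the heart libraries, and the T cell gene *Cd3e* stood at 1.32 FPKM against a median of 0.205. The smooth muscle genes *Myh11* and *Acta2* summed to 1995 to 4490 FPKM in colon and 920 to 1892 FPKM in ovary, and the choroid plexus genes *Ttr* and *Kcnj13* to 1015 to 3843 FPKM in cerebellum against 19.5 to 1546 FPKM in brain. The blood genes *Hbb-bs* and *Hba-a1* summed to 6202 to 21880 FPKM in heart and 23.0 to 3168 FPKM in the other tissues, and the oviduct gene *Ovgp1* stood at 0.846 to 2 FPKM in ovary and at most 0.490 FPKM elsewhere. The part of such cells in the levels below was not tested. Without the third female heart library, 21 in place of 22 members were called higher in heart and 24 in both cases lower.

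Levels are given in FPKM, counts per 1000000 counts of the library and per kilobase of the gene's exons. The highest tissue mean of a member had a median of 1.72 FPKM, reached 1 FPKM for 107 members and 10 FPKM for 22. Testis was the tissue with the highest mean for 63 of 157 members (40.1%, against 28.0% of all 29911 genes tested). Colon and ovary followed with 30 members each, then cerebellum with 16, heart with 13 and brain with 5. Brain was the top tissue for 3.19% of members and 13.2% of all genes tested. Summed over the members, the mean level was 986 FPKM in testis and 173 FPKM in both brain and heart, with colon at 479, ovary at 273 and cerebellum at 196 between them. *Dynlt1-ps1* alone carried 376 FPKM of the sum in testis and *Gstp-ps* 145 FPKM of that in colon. The median member held 0.562 FPKM in testis, 0.293 in colon, 0.187 in cerebellum, 0.186 in ovary, 0.130 in brain and 0.114 in heart. Leaving out any 1 library changed the top tissue of 0 to 10 members, the most when the first ovary library was left out.

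**Figure D1:**
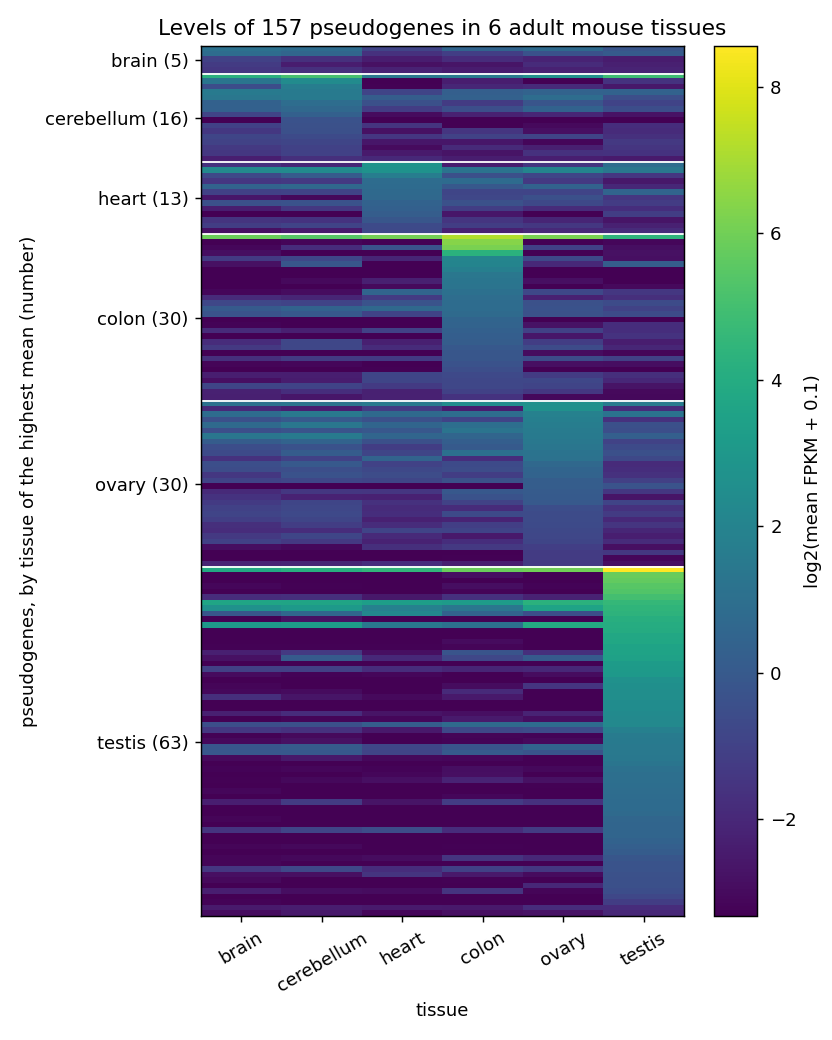
Mean level of the 157 pseudogenes (rows) in 6 tissues (columns), as log2(mean FPKM + 0.1) by colour, with rows grouped by the tissue of the highest mean and sorted by that mean. The block of 63 rows with the highest mean in testis is dark in most other tissues, while many of the 30 rows of the ovary block carry signal in every tissue.

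Tissue specificity was measured with tau, which is 0 for a gene at the same level in every tissue and 1 for a gene found in a single tissue. Median tau was 0.832 for all members, 0.741 for those with a parent and 0.930 for those without. The parents had a median of 0.652, but they were not chosen by their counts, while a member could reach 100 counts through a single tissue, so nothing is read from this difference. At least 0.9 was reached by 69 members, and 20 members were below 0.5. Counts were found in every library for 37 members. At the other end, 14 of the 157 members had no count outside testis, against 1.59% of all 27782 genes with at least 100 counts. These members met the count limit through testis alone. Among them were *Ppp1r2-ps3* with 2880 counts, *Scgb2b23-ps* with 805, *Mark1-ps2* with 473, *Ppp4r3c-ps* with 300 and *Sycp1-ps1* with 120. Stems in this group include genes of the synaptonemal complex (*Sycp1*), the MAGE family (*Mageb8*, *Mageb10*) and reproductive homeobox genes (*Rhox11*). The other stems were *Cyp2c73*, *H2-M10.5*, *Mark1* (both copies), *Ppp1r2*, *Ppp4r3c*, *Scgb2b22*, *Scgb2b23*, *Serpina3l* and *Stk*, so no common role is read from the group.

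Each tissue was then compared with the mean of the other 5 in a fit of all 29911 genes with enough counts, and a gene was called where edgeR's quasi-likelihood test gave a Benjamini-Hochberg adjusted p under 0.05. Of the 157 members, 154 had enough counts for the test, and 143 (92.9%) were called in at least 1 tissue, against 97.3% of all genes tested. Because a member could pass the count limit through a single tissue, these counts are set beside the share of all genes called. In testis 74 members were higher and 14 lower, against 40.4% and 26.7% of all genes called. In colon 41 were higher and 21 lower, against 28.2% and 31.1%. In heart 22 were higher and 24 lower, against 22.1% and 29.6%. In ovary 21 were higher and 11 lower, against 22.4% and 19.8%. In cerebellum 20 were higher and 14 lower, against 30.8% and 22.0%, and in brain 17 and 19, against 33.0% and 23.1%. As shares of the 154, 48.1% were higher in testis and 9.09% lower. On the scale of log2(mean FPKM + 0.1), the median difference of testis from the mean of the other tissues was -0.11 over these members and -0.56 over all genes tested, and in brain it was -1.14 and -0.50. The median fitted edgeR difference in testis had the other sign, 0.94 for members and 0.10 for all genes, and in brain it was -0.83 and -0.10. Fitted differences depend on the prior count where a group is at 0, and the measures also differ in library scaling and added constant. The part of each was not tested, and the direction of the median member in testis differs between the measures. A member with no count in a tissue was seldom called lower there by this fit. Of the 36, 37, 47, 25, 41 and 6 members at 0 in brain, cerebellum, heart, colon, ovary and testis, 0, 0, 2, 1, 0 and 0 were called lower, so the counts of lower members and genes leave out most of those at 0. DESeq2 called 51 members lower in brain, 41 in cerebellum and 30 in ovary, against 33.4%, 31.6% and 30.6% of all genes with a DESeq2 adjusted p. No fitted difference is given below for a member with a group of libraries at 0. Libraries of the tissue lay above every other library for 58 of the members called higher in testis, 16 in colon, 5 in heart, 5 in ovary, 3 in cerebellum and 0 in brain. Of all genes tested, 23.3%, 6.52%, 3.43%, 7.76%, 2.69% and 4.93% were called higher without overlap in these tissues, where the number of libraries runs from 3 to 6.

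By the role of the stem gene, the largest named group was chemosensory receptors (olfactory and vomeronasal, which detect odours and pheromones), with 11 members and no parent. Of these, 4 were called higher and 1 lower in testis, 3 higher in colon and 3 higher in ovary. Of all genes, 40.4%, 28.2%, 22.4% and 22.1% were called higher in testis, colon, ovary and heart, and with groups this small the counts by role are descriptions. The 8 members of xenobiotic and carrier families (cytochrome P450s, glutathione transferases, major urinary proteins) included 5 called higher in testis and 4 in colon. All 3 proteases and inhibitors, *Klk1b7-ps*, *Klk2-ps* and *Serpina3l-ps*, were called higher in testis, and all 3 energy metabolism copies, *Ndufab1-ps*, *Atp5l2-ps* and *Got2-ps1*, higher in heart, although *Got2-ps1* was also called higher in testis and had its highest mean there (0.676 FPKM against 0.247 in heart). Among 10 chromatin and nuclear copies 9 were tested, with 2 higher and 3 lower in testis and 2 higher in ovary, and 6 of the 9 with a parent shared its top tissue. Translation factor and chaperone copies numbered 8, with 3 higher in ovary and 2 in testis, and among 5 immune copies 3 were higher in colon. All 3 cytoskeleton copies were called higher in testis and 2 of them in colon, and of 2 iron and redox and 2 ubiquitin and proteasome copies 1 each was higher in testis and 1 each in heart. The remaining 102 members, 100 of them tested, had 51 higher and 6 lower in testis.

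The member with the highest level was *Dynlt1-ps1*, named after a dynein light chain, a part of the motor that moves along microtubules. Its 3 testis libraries held 396, 342 and 389 FPKM. Ovary held 60.5, 69.1 and 61.6 FPKM and the 6 brain libraries 12.8 to 16.0 FPKM (median 14.6), so testis stood far above and did not overlap any other tissue. It rose in testis by 3.96 ± 0.09 on the log2 scale (SE, edgeR adjusted p = 7.93e-23). All of its 100-base words occur in each of *Dynlt1a*, *Dynlt1c* and *Dynlt1f*, so its counts are uncertain against these genes.

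*Gstp-ps*, a copy of the detoxifying enzyme glutathione S-transferase pi, was highest in colon, with 84.8 to 175 FPKM over 6 libraries (median 163). Testis was lowest with 17.6, 20.3 and 25.7 FPKM, below every other library. It rose in colon by 1.44 ± 0.16 and fell by 1.49 ± 0.26 in testis on the log2 scale (adjusted p 1.77e-08 and 1.66e-05). Of its 100-base words 51.1% occur in another gene, its closest coding gene is *Gstp2*, and it sits in an intron of *Traf5*, which was highest in ovary.

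Butyrophilin-like genes encode membrane proteins, some of which act on T cells of the gut lining, and both of their copies were colon genes. *Btnl5-ps* held 50.8 to 102 FPKM in the 6 colon libraries (median 87.1), and 16511 counts there against 3 in all of cerebellum, 3 in testis and none in brain, heart and ovary. *Btnl7-ps* held 11.0 to 26.2 FPKM in colon (median 19.2) and 3162 counts there, against 11 in brain and 7 in testis. Colon lay above every other library for both (edgeR adjusted p = 5.85e-15 and 1.42e-13), and only 0.424% and 1.08% of their words occur in another gene.

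*Marcksl1-ps4*, named after a regulator of the actin cytoskeleton, held 56.0 to 88.8 FPKM in colon (median 72.1) and at most 1.43 FPKM in any other library. It had 1944 counts in colon and 43 elsewhere, and colon was called higher (edgeR adjusted p = 3.53e-17). Its parent *Marcksl1* was highest in ovary with 128, 150 and 133 FPKM and was called lower in colon, and the pair had an r of -0.56 over 6 tissue means. The pseudogene shares no word with *Marcksl1*, but all of its words lie in *Akr1c19*, a reductase gene with a mean of 239 FPKM in colon and at most 1.34 FPKM in the other tissue means. *Akr1c19* and the pseudogene had an r of 0.958, so the counts of *Marcksl1-ps4*, and its contrast with *Marcksl1*, are uncertain against *Akr1c19*.

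Testis also held the other members of highest level. *Spn-ps*, named after the leukocyte surface protein sialophorin, held 47.4, 43.0 and 42.9 FPKM in testis, with 5392 counts there and 10 in all other libraries. Its parent *Spn* stayed at or below 0.994 FPKM in every tissue mean and held 0.435, 0.104 and 0.368 FPKM in testis. The pseudogene shares no word with *Spn* (identity 82.4%), and testis was above every other library (edgeR adjusted p = 2.09e-18).

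*Tubb4b-ps1*, a copy of a beta tubulin of microtubules, held 33.4, 29.9 and 32.4 FPKM in testis and at most 0.559 FPKM elsewhere, and rose there by 7.99 ± 0.29 on the log2 scale (edgeR adjusted p = 1.07e-18). *Tubb4b* itself was highest in testis at 579, 578 and 608 FPKM, but also held 54.6 to 261 FPKM in the other libraries, so here the copy and the parent shared a top tissue at different breadth. *Gsdmcl-ps*, of the gasdermin family of pore-forming proteins, held 12.2, 11.5 and 11.4 FPKM in testis and rose by 6.44 ± 0.23 (adjusted p = 8.09e-19), while its colon libraries held 0.323 to 1.43 FPKM (median 0.719). *Cyp4f41-ps*, of a cytochrome P450 family, held 1.96, 1.72 and 1.34 FPKM in testis and 0.228 to 0.483 FPKM in colon (median 0.300), with 347 counts in testis and 269 elsewhere, and was called higher in testis (adjusted p = 1.02e-10).

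In heart, *Fabp3-ps1* held 9.001, 6.55, 2.69, 8.63 and 7.36 FPKM, with the lowest in the third female library, and 2.01, 1.53 and 1.78 FPKM in testis. Its parent *Fabp3* held 6070, 4006, 1987, 3718 and 4167 FPKM in heart and 672, 536 and 847 FPKM in testis, the same order of tissues (r = 0.93). The copy was called higher in heart (309 counts there and 99 elsewhere, edgeR adjusted p = 9.25e-11) and reached 0.172% of the parent's level, and 51.8% of its words are shared. *Mpc1-ps*, a copy of the mitochondrial pyruvate carrier *Mpc1*, held 2.24, 3.27, 2.40, 4.64 and 3.53 FPKM in heart and at most 1.36 elsewhere. It rose by 3.19 ± 0.30 (adjusted p = 7.64e-10) and shares 82.3% of its words with a parent that was also highest in heart.

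*Ifi203-ps*, an unprocessed copy of an interferon-inducible nuclear gene, held 1.11, 1.28, 1.86, 1.32 and 2.07 FPKM in heart and rose by 3.95 ± 0.26 on the log2 scale (edgeR adjusted p = 8.86e-13). *Ifi203* held 2.43, 3.83, 10.6, 2.73 and 3.30 FPKM in heart, where the third female library stood above the rest, and 5.24, 4.22 and 4.15 FPKM in ovary. *Tmem181b-ps* was the single member whose heart libraries all lay below the others. It held 0.324, 0.400, 0.597, 0.402 and 0.486 FPKM there against 2.39 to 3.29 FPKM in brain (median 2.77), and fell by 1.40 ± 0.13 in heart (adjusted p = 1.06e-09).

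In cerebellum, both copies of *Alms1*, a centrosome and cilium gene, stood out. *Alms1-ps2* held 2.46 to 3.94 FPKM over 6 libraries (median 3.03) and *Alms1-ps1* held 0.871 to 1.74 FPKM (median 1.11), above every other library in both cases. Both were called higher there (edgeR adjusted p = 1.86e-11 and 1.23e-08). *Alms1* was highest in testis, at 62.2, 57.2 and 52.6 FPKM, with 13.9 to 23.4 FPKM in cerebellum (median 16.7), while the copies held at most 0.147 FPKM in testis. Both copies lie beside the parent on chromosome 6, and 47.3% (-ps2) and 35.9% (-ps1) of their words occur in it. *Mkrn1-ps1*, named after a ring-finger ubiquitin ligase, had 137 counts in the 6 cerebellum libraries, at 0.0597 to 2.04 FPKM (median 0.567), and 0 in all others. It met the count limit through cerebellum alone, so its call there repeats that choice. The call (edgeR adjusted p = 8.09e-06) was lost with DESeq2 (adjusted p = 0.121).

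In ovary, *Zfp36l1-ps*, a copy of an RNA-binding protein that speeds mRNA decay, held 4.81, 6.66 and 7.29 FPKM and at most 0.927 elsewhere, and rose by 5.13 ± 0.43 on the log2 scale (edgeR adjusted p = 2.74e-10). *Zfp36l1* was also highest in ovary with 130, 119 and 106 FPKM. *Eef1a1-ps1*, a copy of translation elongation factor 1 alpha, held 2.36, 2.55 and 2.29 FPKM in ovary and rose by 1.53 ± 0.22 (adjusted p = 1.89e-06), beside 3466, 3953 and 3423 FPKM of *Eef1a1*. *Mug-ps1*, of the murinoglobulin protease inhibitors, held 0.139, 0.489 and 0.323 FPKM in ovary with 123 counts there and 10 elsewhere, and its call (adjusted p = 1.45e-07) was lost with DESeq2 (adjusted p = 0.0905).

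Across all 88 pairs, the pseudogene and the parent had the same top tissue in 31 (35.2%). Over all combinations of these pseudogenes with 18207 protein-coding genes the share was 19.7%. The parents were highest in ovary in 31 pairs, in testis in 19, brain in 11, colon in 10, heart in 9 and cerebellum in 8. The pseudogenes were highest in testis in 36, ovary in 17, cerebellum in 12, heart and colon in 10 each and brain in 3. Both were highest in testis in 10 pairs, in ovary in 10, heart in 6, colon in 3, cerebellum in 2 and brain in 0.

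The pattern over tissues was compared with Pearson's r of log2(mean FPKM + 0.1), over 6 tissue means that share libraries and depth, and given as a description. Median r was 0.324 (quartiles -0.113 and 0.871), against -0.0119 (quartiles -0.394 and 0.464) for the same pseudogenes with all coding genes tested. At least 0.8 was reached by 27 pairs (30.7%, against 9.22% of all combinations), and 28 pairs were below 0. The highest tissue mean of the pseudogene had a median of 3.61% of the parent's. In 10 pairs it exceeded the parent's, each time in testis, and these were *Ppp1r2-ps3*, *Ppp1r2-ps7*, *Ppp1r2-ps9*, *Spn-ps*, *Phf8-ps*, *Kif4-ps*, *Nlrp5-ps*, *C4bp-ps1*, *Rhox11-ps2* and *H2-M10.5-ps1*. *Nlrp5-ps* overlaps exons of *Vmn1r90* on the same strand and has 53.2% of its words there, so its counts are uncertain. *C4bp*, *H2-M10.5* and *Spn* reached at most 0.0891, 0.0157 and 0.994 FPKM, so these 3 copies exceeded parents that stayed below 1 FPKM.

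How close the patterns lay differed with shared sequence. In the 35 pairs with no 100-base word in common, median r was -0.0637, 6 pairs shared the top tissue and 3 reached an r of 0.8, and the pseudogenes had a median tau of 0.907. In the 33 pairs that shared some but under 50% of the words, median r was 0.434, 15 shared the top tissue, 10 reached 0.8 and tau was 0.808. In the 20 pairs that shared at least 50%, median r was 0.922, 10 shared the top tissue, 14 reached 0.8 and tau was 0.615. Without testis, the medians over 5 tissues were 0.161 (31 pairs with a defined r), 0.775 (31 pairs) and 0.859 (20 pairs). The level against the parent went the other way, with a median of 8.67% in pairs without a shared word, 2.70% with some and 1.39% with at least 50%. The part of reads shared between the copies in these differences was not tested. The 35 pairs without a shared word include the 4 that did not align. They also include *Marcksl1-ps4*, whose words all lie in *Akr1c19*. Whether the named gene is the source of these copies was not tested.

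**Figure D2:**
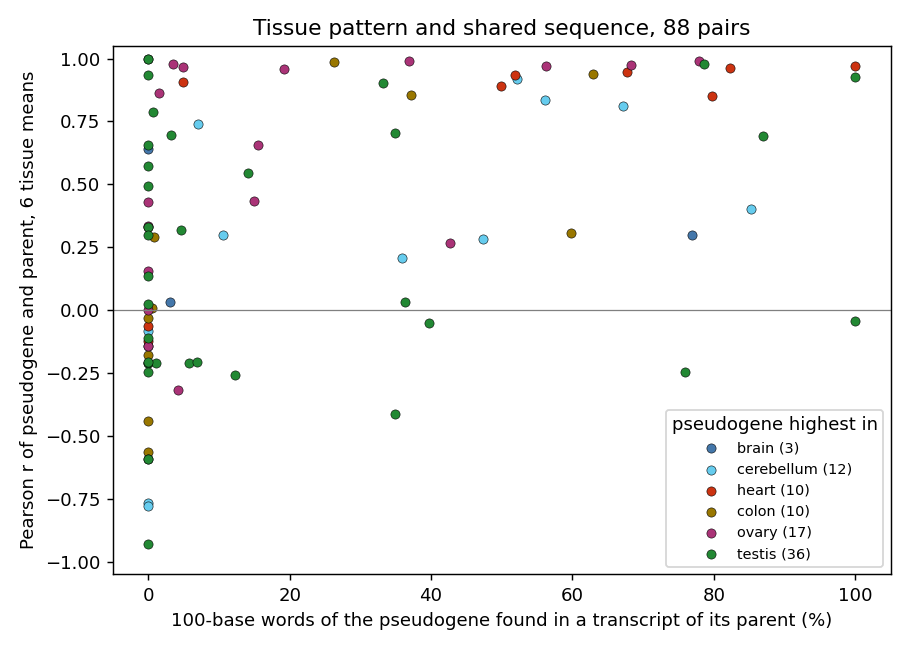
Each point is 1 of 88 pairs, with the percentage of the pseudogene's 100-base words found in its parent on the x axis and the Pearson r of the pair over 6 tissue means on the y axis, coloured by the pseudogene's top tissue. The 35 pairs at 0% spread from -0.929 to 1.00, while 14 of the 20 pairs at 50% or more lie at 0.8 or above.

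The closest pairs among those where both genes reached 1 FPKM were *Rhox11-ps2*, *H3f3a-ps1*, *Hmgb1-ps2* and *Hmgb1-ps3*. *Rhox11-ps2* (4.36, 7.39 and 4.40 FPKM in testis) and *Rhox11* (2.77, 3.27 and 1.32 FPKM) had no count outside testis, so their r of 1.00 says only that, and their sequences did not align. *H3f3a-ps1*, a copy of a histone H3.3 gene, held 8.66, 5.59 and 4.69 FPKM in ovary, 3.48 to 7.10 in colon (median 5.24) and 1.28 to 3.22 in brain (median 1.96), and *H3f3a* held 452, 420 and 334 FPKM, 289 to 378 (median 326) and 132 to 151 (median 141) in these tissues. Their r was 0.98 although only 3.54% of the words are shared.

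The pair with the lowest Pearson's r was *Eif2s3x-ps1* with *Eif2s3x* (r = -0.93), although by ranks the pair was near 0 (Spearman's rho -0.0857). The autosomal copy held 3.52, 2.74 and 2.43 FPKM in testis and at most 0.110 elsewhere, with 288 counts in testis and 14 in the other libraries together. The parent on the X chromosome held 7.26, 5.18 and 7.42 FPKM in testis, its lowest tissue, and 45.7, 52.7 and 55.8 FPKM in ovary. In testis the copy was called higher (edgeR adjusted p = 1.00e-11) and the parent fell by 2.10 ± 0.14 on the log2 scale (adjusted p = 8.86e-13), and no word is shared. The copy met the count limit through testis, so its call repeats that choice, while the parent was not chosen by its count. Without testis, r over the other 5 tissues was 0.525, so the opposition rests on testis. *Aprt-ps* and *Zcchc9-ps* came next with r of -0.78 and -0.77 and had the lowest Spearman's rho (-0.771 for both), at a highest mean of 0.671 and 0.456 FPKM. Among pairs where both genes reached 1 FPKM, *Mark1-ps1* (5.73, 4.65 and 5.76 FPKM) and *Mark1-ps2* (12.4, 13.9 and 14.6 FPKM) had counts in testis alone, while *Mark1*, a microtubule affinity kinase, was lowest there with 1.04, 1.195 and 1.12 FPKM (r = -0.59 for both). These copies did not align to *Mark1*, and all words of *Mark1-ps2* occur in another gene.

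The 7 copies of *Ppp1r2* had 1 pattern in common. *Ppp1r2* was highest in brain, at 13.1 to 24.8 FPKM (median 20.3), with 12.7, 11.4 and 11.6 FPKM in testis, where it was not called (log2 difference 0.09, edgeR adjusted p = 0.584). In testis, *Ppp1r2-ps7* held 61.9, 47.7 and 59.0 FPKM, *Ppp1r2-ps3* held 56.5, 49.0 and 50.03, *Ppp1r2-ps9* held 39.6, 41.5 and 39.2 and *Ppp1r2-ps1* held 19.6, 14.6 and 18.5. The order of the first 2 overlapped between libraries, and all 4 lay above the parent in all testis libraries.

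Lower in order, *Ppp1r2-ps4* held 11.2, 7.61 and 7.40 FPKM in testis, *Ppp1r2-ps6* held 9.05, 6.61 and 9.11, which overlapped, and *Ppp1r2-ps2* held 5.87, 5.70 and 5.43. Together the copies had 12179 counts in testis and 144 in the 26 other libraries, and *Ppp1r2* had 7615 counts in testis. Per kilobase of exons, the mean levels of the copies in testis summed to 188 FPKM against 11.9 for *Ppp1r2*. Outside testis the sum of the copies was 0.176 FPKM (ovary) to 0.608 FPKM (brain). All 7 were called higher in testis, with edgeR adjusted p from 1.98e-14 (*Ppp1r2-ps4*) to 5.21e-10 (*Ppp1r2-ps3*). Each copy held only 0 (*Ppp1r2-ps3*) to 99 (*Ppp1r2-ps4*) counts outside testis, so each met the count limit through testis. These calls repeat that choice and are not further support. The stretches printed above show that the copies differ in their distance from the parent. Identity in the best local alignment was 76.1% for *Ppp1r2-ps7*, 66.5% for *Ppp1r2-ps9* and 96.4% to 97.8% for the autosomal copies. That alignment covered 98.7% of *Ppp1r2-ps7* but 44.9% of *Ppp1r2-ps9*. *Ppp1r2-ps1* and *Ppp1r2-ps6*, both on chromosome 17, have 80.7% and 95.02% of their words in other genes but 5.78% and 6.90% in *Ppp1r2*. Of the words of *Ppp1r2-ps1* 80.7% occur in *Ppp1r2-ps6*, and 80.3% the other way, so the counts of these copies are uncertain against each other.

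**Figure D3:**
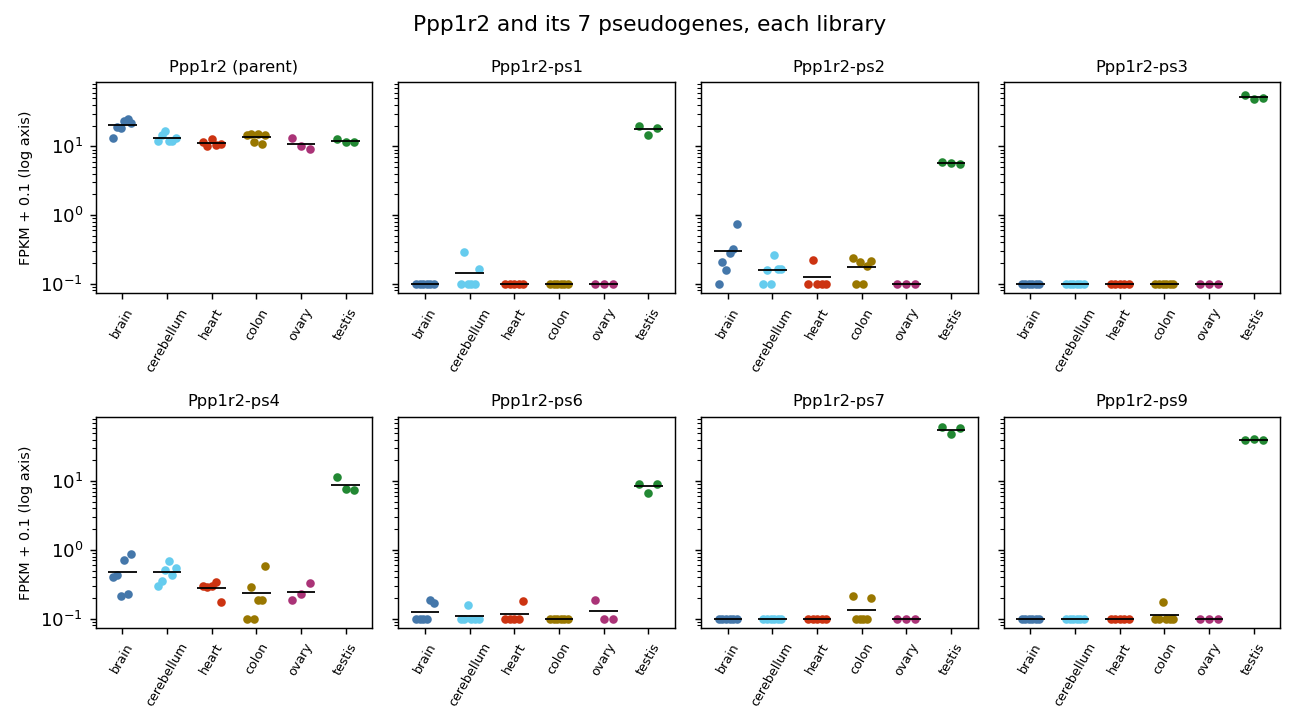
Level of *Ppp1r2* and its 7 pseudogenes in each of 29 libraries as FPKM + 0.1 on a log axis, by tissue, with a line at each tissue mean. The parent stays between 9.03 and 24.8 FPKM in all tissues, and each pseudogene is far above its other libraries in the 3 testis libraries.

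Of the 5 copies of *Hmgb1*, 3 were called lower in testis. *Hmgb1* was highest in ovary with 164, 138 and 134 FPKM and lowest in testis with 30.6, 27.4 and 31.0 FPKM, and was called in both (log2 differences 1.01 ± 0.09 and -0.97 ± 0.11, edgeR adjusted p = 1.16e-09 and 1.39e-08). In ovary *Hmgb1-ps3* held 3.57, 1.77 and 2.52 FPKM, *Hmgb1-ps2* held 1.74, 1.71 and 1.06 and *Hmgb1-ps7* held 2.31, 0.682 and 0.989. In testis these copies held 0.0511 to 0.497 FPKM. Ovary was called higher for *Hmgb1-ps2* (1.24 ± 0.35, adjusted p = 0.00514) and *Hmgb1-ps3* (1.25 ± 0.36, adjusted p = 0.00635), and testis lower for *Hmgb1-ps2*, *Hmgb1-ps3* and *Hmgb1-ps7* (adjusted p = 0.00433, 0.0289 and 0.0319). Each followed the parent with an r of 0.97, 0.97 and 0.96 for *Hmgb1-ps2*, *Hmgb1-ps3* and *Hmgb1-ps7*. Their shared words came to 68.3%, 56.2% and 19.1%. *Hmgb1-ps6*, with 15.5% shared, had an r of 0.66 and was called in neither ovary nor testis (adjusted p = 0.265 and 0.481).

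*Hmgb1-ps8* shares no 100-base word with *Hmgb1* and did not follow it (r = -0.0637). Its heart libraries held 0.131, 0.128, 7.92, 0.489 and 0 FPKM, so its heart mean of 1.73 rested on the third female library and was 0.187 without it. The next highest library was the first of male colon with 5.33 FPKM, in a colon range from 0.217 (median 0.904), and colon was called higher (2.34 ± 0.62 on the log2 scale, edgeR adjusted p = 0.00192). These 2 libraries also held the most of the T cell gene *Cd3e*, 1.32 and 1.69 FPKM, in heart and colon respectively. The part of such cells in this copy's level was not tested. It lies in an intron of *Gm26740* on the same strand, which was highest in colon and followed it with an r of 0.936 over 6 tissue means.

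**Figure D4:**
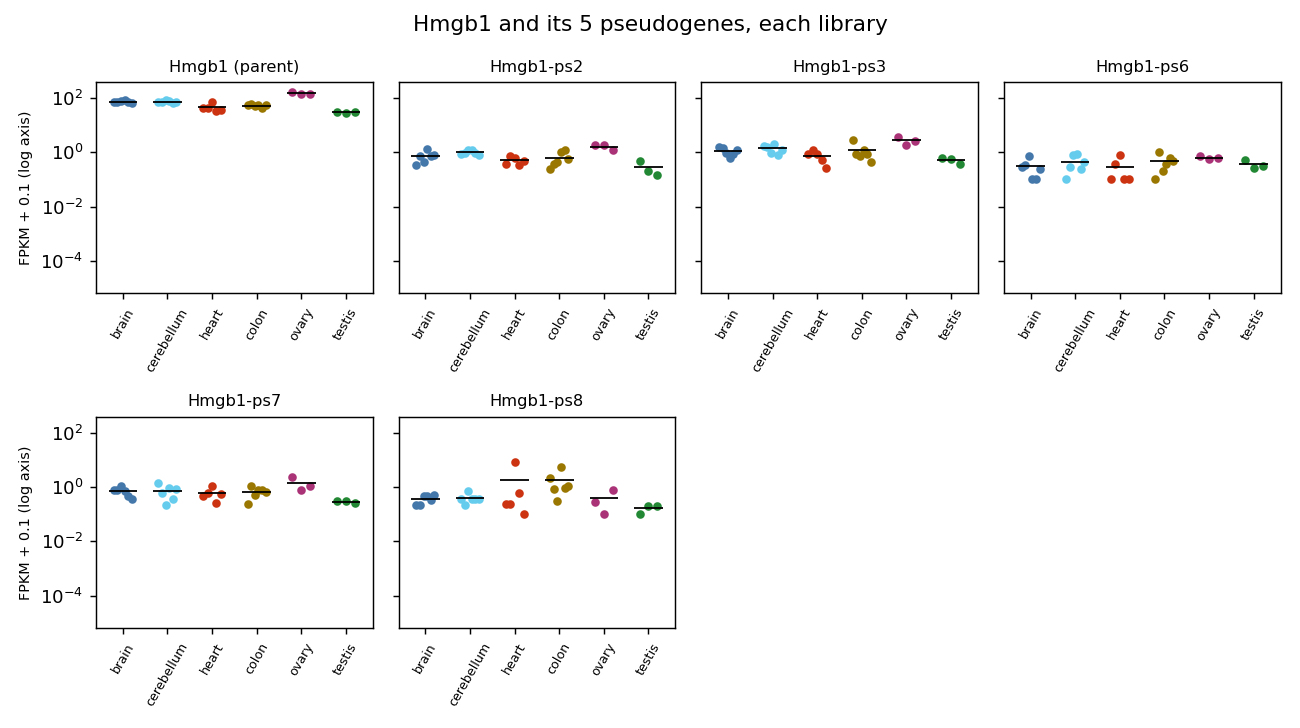
Level of *Hmgb1* and its 5 pseudogenes in each of 29 libraries as FPKM + 0.1 on a log axis, by tissue, with a line at each tissue mean. Copies -ps2, -ps3 and -ps7 were called lower in testis like the parent, -ps2 and -ps3 also higher in ovary, at 1.04%, 1.80% and 0.913% of its highest mean, and the heart mean of -ps8 rests on 1 library at 7.92 FPKM.

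The 2 copies of *Cbx3*, a heterochromatin protein, differed although both are at least 99.6% identical to the parent. *Cbx3-ps6* shares 77.9% of its words and had an r of 0.99 with *Cbx3*, at 0.402, 0.655 and 0.581 FPKM in ovary and at most 0.869 elsewhere, with too few counts to be tested. *Cbx3-ps7* shares 75.9% and had an r of -0.24, at 2.35, 2.81 and 2.65 FPKM in testis and at most 0.190 elsewhere. It had 130 counts in testis and 9 elsewhere and was called higher there (edgeR adjusted p = 2.02e-09), where *Cbx3* was not called (log2 difference -0.20, adjusted p = 0.391). The copies also share 77.9% of their words with each other, so their counts are uncertain against each other.

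In the fit over all genes, both members of a pair could be tested in 84 pairs. In testis, 18 pairs had both genes higher, 9 both lower, 10 the pseudogene higher and the parent lower, and 1 the reverse. In another 11 the pseudogene alone was called, in 29 the parent alone and in 6 neither. In heart, 12 pairs had both higher and 8 both lower, with 1 pair in each opposed direction, and in ovary 9 and 5 with 2 opposed. In colon, 6 pairs had both higher and 6 both lower, while 6 had the pseudogene higher and the parent lower and 5 the reverse. In brain these numbers were 3, 3, 5 and 3, and in cerebellum 6, 4, 4 and 1. No share over all combinations of pseudogenes and coding genes was computed for these counts. Singly, 74 of 154 members and 30 of 70 parents were called higher in testis, so unrelated genes would also give pairs with both higher. Nothing particular to the pairs is read from these counts.

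Pseudogene and parent were also compared inside each library, as the log2 ratio of their CPM (each + 0.5), in the 3 testis libraries against the 26 others. The ratio was higher in testis in 45 of 88 pairs and lower in 16 at p under 0.05, unadjusted, by an exact two-sided permutation test over all 3654 choices of 3 libraries, whose smallest p is 0.0002737. The 26 others come from several tissues, so libraries are not exchangeable, and a ratio that varies between tissues can give a small p. No share over all combinations of pseudogenes and coding genes was computed, so the numbers of pairs are descriptions. The pseudogenes were chosen by their count and the parents were not, so a copy that met the limit through testis had to have a higher ratio there. In the 60 pairs whose pseudogene held at least 100 counts outside testis, 25 were higher and 12 lower. Outside these 60 the added constant can fix the result, as for *Sycp1-ps1* and *Supt20-ps* (0 and 3 counts outside testis) among the lower pairs and *Rhox11-ps2* and *H2-M10.5-ps1* (0 counts outside testis) among the higher. The split by shared words covers all 88 pairs, also those with a fixed result, and nothing is read from it. With no shared word 18 were higher and 8 lower, with some shared 17 and 4, and with at least 50% shared 10 and 4. Pairs with the same parent are not independent. Of the 56 pairs where both genes reached 1 FPKM, the largest shifts were those of *Ppp1r2-ps7* (6.62), *Ppp1r2-ps9* (6.36), *Ppp1r2-ps3* (6.22) and *Phf8-ps* (6.12), each at the smallest p by the exact permutation test. Beyond these stood *Spn-ps* at 7.32, whose parent stayed below 1 FPKM. These copies had few or no counts outside testis and met the count limit through it. The choice of members thus fixed the direction and the small p, and the size of the shift is set by the added constant. With CPM + 0.1 the shifts of the 5 copies in this order were 8.88, 8.65, 8.53, 8.30 and 9.53, and with CPM + 2 they were 4.68, 4.42, 4.29, 4.21 and 5.26. The exact p stayed at its smallest value, which for such copies is no check on the constant. *Phf8-ps*, an autosomal copy of an X-linked histone demethylase, held 12.0, 13.0 and 10.2 FPKM in testis with 4103 counts there and 9 elsewhere, while *Phf8* held 10.02, 9.79 and 9.07 FPKM there.

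The lowest shifts among the 56 pairs at 1 FPKM were those of *Ccnb2-ps*, both *Alms1* copies and *Kpna2-ps*. *Sycp1-ps1*, below 1 FPKM, lay in the same range at -4.03, but it had no count outside testis, so this value is set by the added constant and is not read as a lower ratio. *Ccnb2*, a cyclin of cell division, held 76.9, 84.8 and 81.5 FPKM in testis and 9.24, 13.8 and 10.1 in ovary, while *Ccnb2-ps* held 0.781, 0.451 and 0.566 in testis, inside its range in other tissues (shift -5.59). *Kpna2*, a nuclear import receptor, held 202, 195 and 182 FPKM in testis and *Kpna2-ps* 0.694, 0.701 and 0.518 (shift -3.45), and the copy was called higher in colon and ovary and not in testis (edgeR adjusted p = 0.356). *Alms1-ps2* and *Alms1-ps1* lay between them at -4.61 and -4.27. All 4 were at the smallest p of the exact permutation test, 0.0002737. *Fabp3-ps1* (-2.41, exact p = 0.101) and *Marcksl1-ps4* (-2.43, exact p = 0.237) did not pass.

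**Figure D5:**
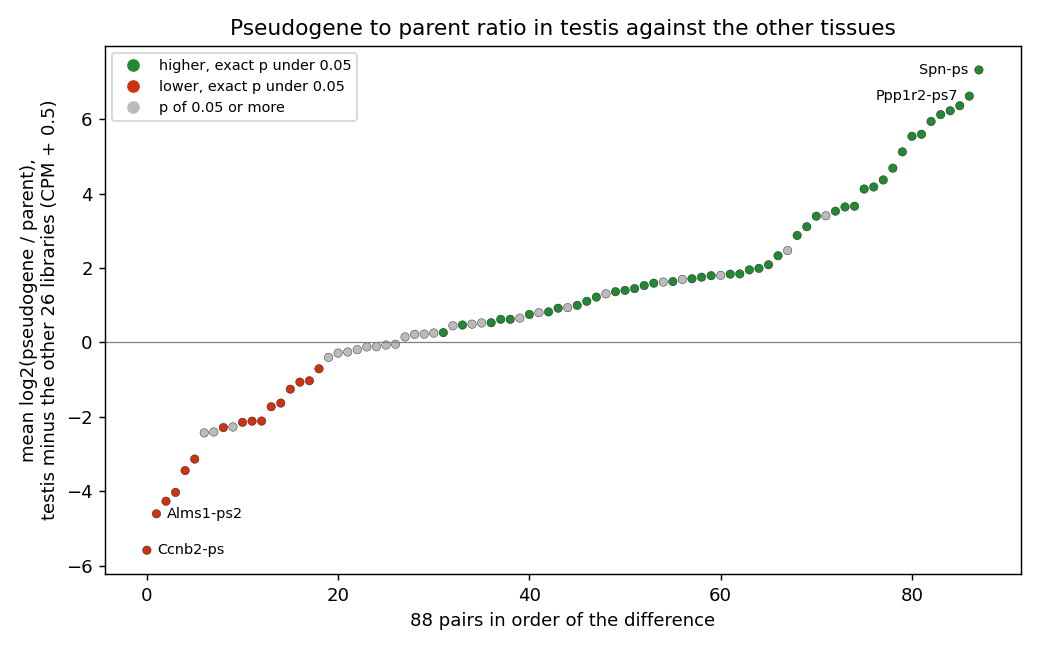
The 88 pairs in order of the testis shift, the mean log2 ratio of pseudogene to parent (CPM + 0.5) in 3 testis libraries minus that in 26 others, with colour for the exact permutation p under 0.05. There are 45 pairs higher and 16 lower, from -5.59 for *Ccnb2-ps* to 7.32 for *Spn-ps*, whose value is set by the added constant. Among the 60 pairs whose pseudogene held at least 100 counts outside testis, 25 were higher and 12 lower. No share over all combinations was computed.

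Position gave few contrasts. The parent lay on the X chromosome in 7 pairs, 5 of them with the copy on an autosome. Of these, *Phf8-ps*, *Kif4-ps* and *Eif2s3x-ps1* were highest in testis, *Apoo-ps* in heart and *Slc25a5-ps* in ovary. With an autosomal parent, 32 of 81 copies were highest in testis. On the X chromosome lay 12 members, 9 of them highest in testis. In a same-strand intron of another gene lay 17 members, whose median r with the host was 0.576, with the same top tissue as the host in 2. The 12 of these that had a parent followed it with a median r of 0.673 and the host with 0.522. These numbers are small and were not tested.

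Between males and females, no member was called in brain, cerebellum, heart or colon, and none in the interaction of sex with tissue, which called 0.0167% of all genes. Higher in males and lower in males were 0.0201% and 0.0167% of all genes in brain, 0.0167% and 0.0134% in cerebellum, 0.0234% and 0.0401% in heart and 0.0903% and 0.234% in colon (edgeR). At an unadjusted p under 0.05 stood 8, 3, 8 and 11 of the 154 members in these tissues, against 4.83%, 3.06%, 9.65% and 8.85% of all genes. DESeq2 called 3 members higher in male colon, against 0.705% of all genes, and none elsewhere. Its shares of all genes higher and lower in males were 0.0325% and 0.179% in brain, 0.0356% and 0.0498% in cerebellum and 0.258% and 1.12% in heart, with 1.32% lower in colon. The 3 members were *Pisd-ps1* (log2 difference 1.31, DESeq2 adjusted p = 0.00555, edgeR 0.0928), *Tmem181b-ps* (0.70, DESeq2 0.0306, edgeR 0.140) and *Gpr137b-ps* (0.67, DESeq2 0.0371, edgeR 0.196), named after their values were seen. The stem of *Pisd-ps1* encodes the mitochondrial enzyme that makes phosphatidylethanolamine. With edgeR, *Pisd-ps1* was called without the third female heart library (adjusted p = 0.0344) and without the third male colon library (adjusted p = 0.0273).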

How the data were processed

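For 29 RNA-seq libraries, the authors deposited raw gene-level read counts, without normalization. The submitters' processing notes name HISAT2 2.0.5, featureCounts 1.6.3, FastQC 0.11.8, MultiQC 0.9 and the mm10 genome. The annotation joined Iso-seq loci with ENSEMBL genes. Whether counting used strand is not given in the sources used here. A parent was the protein-coding gene with the stem as its name, counted as an Iso-seq locus or an ENSEMBL gene. All count columns were used (0 others were present). 1 of the genes planned as markers of other cells is not reported here.

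FPKM was computed from total counts and the union of exons. Tests used edgeR 4.0.16 (TMM, filter on low counts by group, 1 mean per group, all 29 libraries, Benjamini-Hochberg over 29911 genes) in R 4.3.3, with DESeq2 1.42.0 as an alternative, and were checked on simulated counts. Ratios of a pair were tested by exact permutation of the absolute difference. Sequences were GENCODE M21 transcripts, aligned with blastn 2.17.0 (e-value limit 1e-10) and searched on 1 strand for 100-base words.

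The members and lists were chosen with earlier results of these data known. Genes named were the 8 with the highest level, up to 3 per tissue and direction with the smallest adjusted p and no overlap, the 4 highest and lowest in correlation and in testis shift, families with several copies, *Cyp4f41-ps* and those at the count limit. Others, listed where a count of 14 or fewer is given or where a copy exceeds its parent or lies on another chromosome type, were chosen after their values were seen. Alternatives were other tools, scalings, filters, count limits, pseudocounts and leaving out each library. The settings with pairs that share no word, with pairs whose closest coding gene is the parent and with copies at the limit outside testis were added after seeing the data.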

Additional observations from a re-analysis of the deposited data

How the results depend on the processing

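Most counts and medians held their direction and moved by less than 1.5 times or less than the spread between libraries when the scaling, filter, block or a single library was changed. DESeq2 in place of edgeR called more members lower, 51 in brain, 41 in cerebellum and 30 in ovary (33.4%, 31.6% and 30.6% of all genes), and 3 higher in male colon (0.705%). Members at 0 in a tissue were seldom called lower by edgeR, as given above. Members without exon overlap gave 7 lower in ovary. With a limit of 500 counts, which leaves 57 members and 31 pairs, 9 were higher in brain, 10 in cerebellum, 7 in heart, 15 in colon (13 lower), 11 in ovary and 31 in testis (6 lower), against 38.5%, 35.4%, 27.9%, 28.3% (42.2%), 25.1% and 39.4% (35.6%) of all genes at that limit, 6 pairs shared the top tissue, and median tau was 0.914 for members with a parent and 0.613 for parents. Median r of the pairs was 0.271 with TMM-scaled counts, 0.368 with a pseudocount of 0.01, 0.4 with Spearman's rho and 0.562 without testis. Median tau of members with a parent, 0.741 with all of them, was 0.759 with TMM-scaled counts and 0.867 for genes that reach 1 FPKM. The 35 pairs with no shared word had a median r of -0.0637, the reverse of the sign over all pairs, with 6 of the same top tissue and median tau of 0.907 and 0.686. Pairs whose closest coding gene is the parent gave 0.613 for the tau of parents. With pseudogenes that hold 100 counts outside testis, also chosen after seeing the data, 25 pairs in place of 45 had a higher ratio in testis. Leaving out each library in turn gave 0.648 to 0.675 for the tau of parents, 6 to 12 members lower in ovary, 8 to 15 lower in testis and 0 to 1 higher in male colon. The r of *Eif2s3x-ps1* with *Eif2s3x* turned to 0.525 without testis and was -0.0857 by Spearman's rho. For each of these the cause was not tested, apart from the smaller number of members or pairs where a setting removes them.

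The labels number the replicates alike in every group. Deviations from the group means correlated with a median of -0.002 over 126 pairs of same-numbered libraries, and 5 pairs exceeded 0.1, so the numbers were not taken to pair libraries. With the replicate number as a block, 74 members were higher and 14 lower in testis, and 14 in place of 17 were higher in brain. Levels below about 1 FPKM rest on few counts in a library, so small differences between low copies may be missed at this depth.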

Other observations

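2 members lie on the Y chromosome. *Tspy-ps*, named after a testis-specific Y-linked gene, had 0 counts in the 15 female libraries and 163 in 7 of the 14 male libraries. *Mid1-ps1*, named after a microtubule-binding ubiquitin ligase gene of the X chromosome, had 87 counts in 13 of 15 female libraries and 95 in 13 of 14 male libraries. Females carry no Y chromosome, and 76.9% of the 100-base words of *Mid1-ps1* occur in *Mid1*, so at least the female counts on this copy came from other sequence. How much of the male counts did so was not tested.

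*Phf11-ps*, at the count limit, had 25 of its 101 counts in the third female heart library, the one with high fat cell and T cell genes. Its heart mean was 0.466 FPKM with that library and 0.150 FPKM without it.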
